A study of Homo sapiens with 6 samples.

Results

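The genes described here are 10 core components of stress granules: G3BP1, G3BP2, CAPRIN1, UBAP2L, TIA1, TIAL1, ATXN2, ATXN2L, PABPC1 and PABPC4. They were chosen by name, and all 10 were present among the 36601 rows of the gene count table. The splicing table held 295 introns inside the hg38 spans of these genes and on their strand, of 153462 introns in all. Stress granules are cytoplasmic bodies of messenger RNA and protein that form when translation initiation stalls and polysomes run off. G3BP proteins bind the released RNA and nucleate the granule, CAPRIN1 and UBAP2L bind G3BP, and TIA1, ataxin-2 and the cytoplasmic poly(A)-binding proteins join it. TDP-43, a nuclear RNA-binding protein that forms cytoplasmic inclusions in amyotrophic lateral sclerosis, can enter stress granules when it is mislocalized.

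All libraries came from U2OS, a human osteosarcoma cell line, with a doxycycline-induced transgene that encodes Clover-tagged TDP-43 whose nuclear localization signal is mutated (TDP-43-mNLS-Clover). The aggregates group received 50 nM seeds of fibrils made from the TDP-43 low-complexity domain with a lipid reagent, and the diffuse group received the protein's storage buffer in a mock transfection. After 48 hours an imaging cell sorter kept seeded cells with Clover aggregates and mock-treated cells with diffuse Clover. Each group had 3 libraries of polyA RNA from separate transfections. Because every seeded library was sorted for aggregates and every mock library for diffuse signal, seeding, aggregation and sorting cannot be told apart, and both groups overexpressed the cytoplasmic TDP-43.

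The libraries held 40279084 to 46863013 gene counts and 25341453 to 32020553 counts of split reads, which are reads that span an intron. TARDBP, the gene of TDP-43, was at 2581 ± 42.5 CPM (counts scaled to a common library size; SD, n = 3) in aggregates and 7440 ± 218 CPM in diffuse cells, and these counts do not separate the transgene from the cell's own gene. Summed over 8 bone and mesenchymal marker genes, the level was 3491 to 3805 CPM in aggregates and 5754 to 5894 CPM in diffuse cells, with SP7 at 0 in every library. Over 14 markers of blood, endothelium, epithelium, neurons and glia the sum was 155 to 161 CPM in aggregates and 110 to 111 CPM in diffuse cells, with 8 of the markers under 1 CPM and none at 0. The part of these differences in the values below was not tested.

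PABPC4, PABPC1, G3BP2 and TIA1 differed most between the groups. PABPC4 was 1.72-fold and PABPC1 1.56-fold higher in aggregates, while G3BP2 was 1.73-fold and TIA1 1.61-fold lower. The remaining 6 genes differed by less than 1.2-fold, although after a correction of each library for GC content and gene length CAPRIN1 and TIAL1 exceeded that, at log2 fold changes of 0.34 and 0.29. In edgeR's quasi-likelihood test, fitted over 17839 genes adjusted by Benjamini-Hochberg and read at 0.05, 7 of the 10 genes rose and 3 fell. In the same fit 75.4% of all genes passed, 37.8% of them all as rises and 37.6% as falls, so passing the test does not set these genes apart. The groups did not overlap for any of the 10, as for 76.2% of all genes. The median log2 fold change of the 10 was 0.14, against 0.01 over all genes, and the median size without its sign was 0.22, against 0.41. After the GC and length correction 8 of the 10 rose and 2 fell, with a median of 0.24, against 0.025 over all genes. In that corrected fit 6999 of all 17839 genes rose and 6462 fell. When edgeR instead tested whether a change exceeded a fold of 1.2, only PABPC4, PABPC1, G3BP2 and TIA1 passed, 4 of 10 genes, where 51.6% of all genes did. In bulk RNA, fewer cells of a type and less RNA per cell cannot be told apart.

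**Figure D1:**
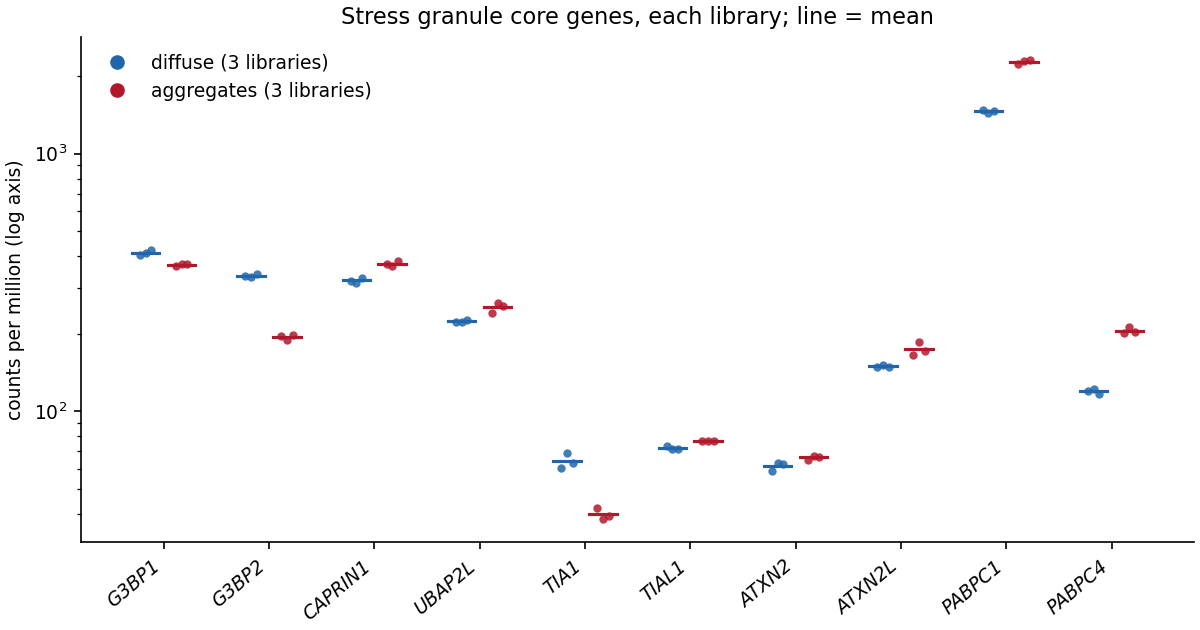
Level of each gene in each library, in TMM-scaled CPM on a log axis, with diffuse libraries in blue, aggregate libraries in red and a line at each group's mean. G3BP2 and TIA1 sit clearly lower and PABPC1 and PABPC4 clearly higher in aggregates, while the other 6 genes differ by less than 1.2-fold.

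Per kilobase of exon, PABPC1 had by far the highest level of the 10 in both groups, at 307 ± 4.72 CPM per kilobase in diffuse cells and 479 ± 10.5 in aggregates (SD, n = 3). In diffuse cells it was followed by G3BP2 at 46.7 ± 0.62, CAPRIN1 at 41.9 ± 0.993, G3BP1 at 33.3 ± 0.74, UBAP2L at 29.8 ± 0.392, ATXN2L at 23.0 ± 0.241 and PABPC4 at 17.6 ± 0.425 CPM per kilobase. TIAL1 at 9.80 ± 0.184, TIA1 at 9.70 ± 0.669 and ATXN2 at 3.72 ± 0.148 CPM per kilobase closed the order, and TIAL1 and TIA1 overlapped. In aggregates G3BP2 was at 27.0 ± 0.701 CPM per kilobase, in position 6 of 10 where it had been in position 2, and PABPC4, at 30.3 ± 0.925, was in position 4 where it had been in position 7. In that group PABPC4 overlapped G3BP1, at 29.9 ± 0.301, and G3BP2 overlapped ATXN2L, at 26.8 ± 1.62 CPM per kilobase. TIA1 was at 6.02 ± 0.314 CPM per kilobase there, below TIAL1 at 10.4 ± 0.0443, with no overlap. These lengths count every annotated exon base, and the order changed with the length used: over its longest principal transcript TIAL1 was in position 5, not 8, in diffuse cells.

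G3BP1 encodes the RNA-binding protein whose dimers nucleate stress granules. It is on chromosome 5 (ENSG00000145907, chr5:151771045-151812785, plus strand). G3BP1 was at 367, 372 and 374 CPM in aggregates and 405, 412 and 423 CPM in diffuse cells. All 3 aggregate libraries were thus below all 3 diffuse libraries, by a log2 fold change of -0.16 (SE 0.036, edgeR adjusted p = 5.73e-05). The direction was not stable: after correction of each library for GC content and gene length the log2 fold change was 0.097, with an adjusted p of 0.00454. Split reads of G3BP1 went the same way as the corrected value, at 344 ± 3.58 against 327 ± 5.39 TMM-scaled CPM of the splicing table. That table was scaled separately from the gene counts. In every gene described here the split-read log2 ratio lay above the gene-count value, for G3BP1 at 0.072 against -0.16. G3BP1 overlaps the antisense gene ATOX1 over 1488 bases, and the strand setting of the counting is not given in the sources used here.

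G3BP2, the paralog of G3BP1 that can also nucleate granules, is on chromosome 4 (ENSG00000138757, chr4:75642782-75724525, minus strand). It was at 196, 188 and 198 CPM in aggregates and 334, 332 and 340 CPM in diffuse cells. Every aggregate library was far below every diffuse library, with a log2 fold change of -0.79 (SE 0.036, edgeR adjusted p = 5.91e-37). Of all genes tested, 22.8% changed by at least as much in either direction. The value was -0.64 after the GC and length correction, and split reads gave -0.65.

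CAPRIN1 and UBAP2L encode binding partners of G3BP that promote granule assembly, and both were slightly higher in aggregates. CAPRIN1 (ENSG00000135387, chr11:34051683-34101156, plus strand) was at 372, 366 and 382 CPM in aggregates and 321, 315 and 330 CPM in diffuse cells. Its log2 fold change was 0.21 (SE 0.036, edgeR adjusted p = 1.06e-07), and 0.34 after the GC and length correction (adjusted p = 1.61e-13). UBAP2L (ENSG00000143569, chr1:154220179-154271510, plus strand) was at 241, 263 and 256 CPM in aggregates and 222, 222 and 227 CPM in diffuse cells. Its log2 fold change was 0.18 (SE 0.036, edgeR adjusted p = 5.36e-06). In neither gene did the groups overlap. Both changes were small beside those of other genes, since 72.2% of all genes changed by at least as much as CAPRIN1 and 76.2% by at least as much as UBAP2L. UBAP2L shares 459 bases with the antisense gene C1orf43, itself at 166 CPM.

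TIA1 and TIAL1 encode related RNA-binding proteins with a prion-like domain that regulate splicing in the nucleus and translation in the cytoplasm, and the paralogs moved apart. TIA1 (ENSG00000116001, chr2:70209444-70248660, minus strand) was at 42.1, 38.2 and 39.1 CPM in aggregates and 60.1, 68.8 and 63.3 CPM in diffuse cells. The highest aggregate library was well below the lowest diffuse library, and the log2 fold change was -0.69 (SE 0.044, edgeR adjusted p = 7e-23). Corrected for GC and length it was -0.47, and split reads gave -0.64. TIA1 shares 39172 bases of its span with C2orf42, annotated on the same strand and counted at 8.81 CPM, so reads in shared exons can be assigned to either. TIAL1 (ENSG00000151923, chr10:119571802-119597029, minus strand) was at 76.4, 77.1 and 76.9 CPM in aggregates and 73.6, 71.1 and 71.5 CPM in diffuse cells. The groups were separate but close, with a log2 fold change of 0.092 (SE 0.038, edgeR adjusted p = 0.0247). Without diffuse library 2 the adjusted p for TIAL1 was 0.0933, and without diffuse library 3 it was 0.0936. Correction for GC and length raised the TIAL1 value to 0.29.

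ATXN2, whose CAG repeat expansions cause ataxia and raise the risk of amyotrophic lateral sclerosis, and its paralog ATXN2L encode RNA-binding proteins that bind poly(A)-binding protein through a short motif. ATXN2 (ENSG00000204842, chr12:111443485-111599676, minus strand) was at 65.0, 67.0 and 66.7 CPM in aggregates and 58.6, 63.0 and 62.7 CPM in diffuse cells. Its log2 fold change was 0.11 (SE 0.04, edgeR adjusted p = 0.0106), and without diffuse library 1 the adjusted p was 0.133. After the GC and length correction the ATXN2 value was 0.21 (edgeR adjusted p = 4.66e-07). ATXN2 overlaps SH2B3, on the other strand, over 8139 bases. ATXN2L (ENSG00000168488, chr16:28823035-28837237, plus strand) was at 165, 186 and 172 CPM in aggregates and 149, 152 and 149 CPM in diffuse cells. All aggregate libraries were higher, by a log2 fold change of 0.22 (SE 0.037, edgeR adjusted p = 1.16e-07).

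PABPC1 and PABPC4 encode the cytoplasmic proteins that coat the poly(A) tail and link it to the translation initiation complex, and both were clearly higher in aggregates. PABPC1 (ENSG00000070756, chr8:100685816-100722809, minus strand) was at 2219, 2292 and 2315 CPM in aggregates and 1471, 1432 and 1470 CPM in diffuse cells. The groups were far apart, with a log2 fold change of 0.64 (SE 0.04, edgeR adjusted p = 1.49e-27), and the GC and length correction left it at 0.64. PABPC1 has near-identical processed copies elsewhere in the genome, so its counts depend on how the authors treated reads with several matches. PABPC4 (ENSG00000090621, chr1:39560816-39576790, minus strand) was at 201, 212 and 203 CPM in aggregates and 120, 122 and 117 CPM in diffuse cells. Its log2 fold change was 0.78 (SE 0.036, edgeR adjusted p = 3.28e-36), the largest rise of the 10, and 0.88 with the correction. Split reads, which lie across exon junctions, gave 0.70 for PABPC1 and 0.91 for PABPC4.

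**Figure D2:**
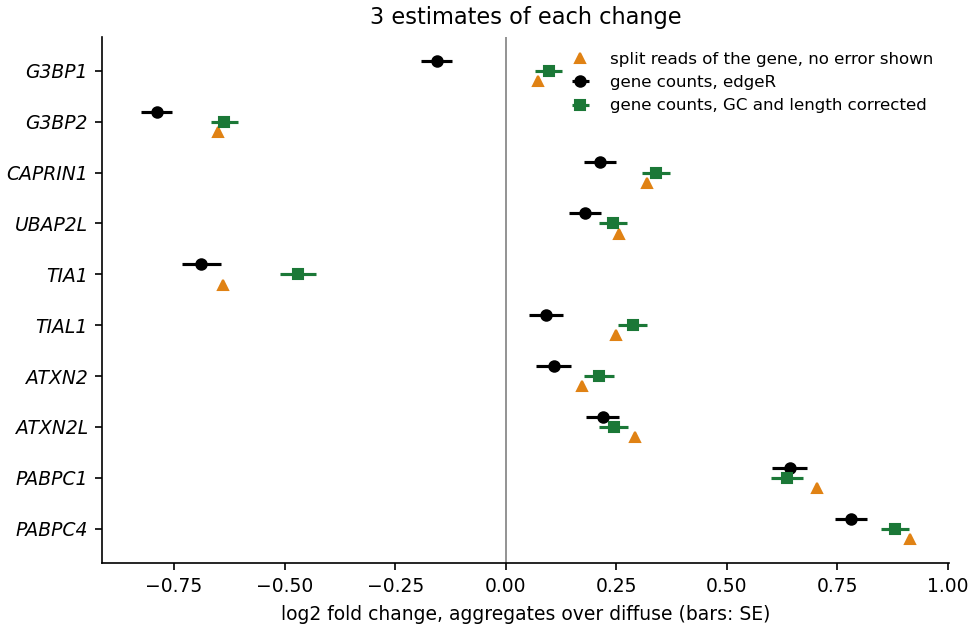
Log2 fold change of each gene, aggregates over diffuse, from gene counts with edgeR (black), from the same counts corrected for GC content and gene length (green) and from the summed split reads of the gene (orange, no error shown), with bars for the standard error. G3BP1 is at -0.16 before and 0.097 after correction, and the other 9 genes keep their side of 0 in all estimates.

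Within pairs of paralogs, the shares of the G3BP and TIA pairs lay furthest apart between the groups. G3BP1 made up 65.2, 66.4 and 65.4% of the counts of G3BP1 and G3BP2 together in aggregates and 54.8, 55.4 and 55.4% in diffuse cells. The difference was 10.4 percentage points, with no overlap. TIA1 made up 35.5, 33.1 and 33.7% of its pair in aggregates and 44.9, 49.2 and 46.96% in diffuse cells, a difference of -12.9 points. ATXN2 was at 27.6 ± 0.928% of its pair in aggregates and 29.1 ± 0.761% in diffuse cells, and the nearest libraries of the groups were 28.2% and 28.2%. PABPC1 was at 91.7 ± 0.212% and 92.4 ± 0.264% of its pair (SD, n = 3). The two-sided exact permutation test gave p = 0.1 for each of the 4 pairs, and 0.1 after Benjamini-Hochberg adjustment, the smallest that 3 against 3 libraries allow.

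**Figure D3:**
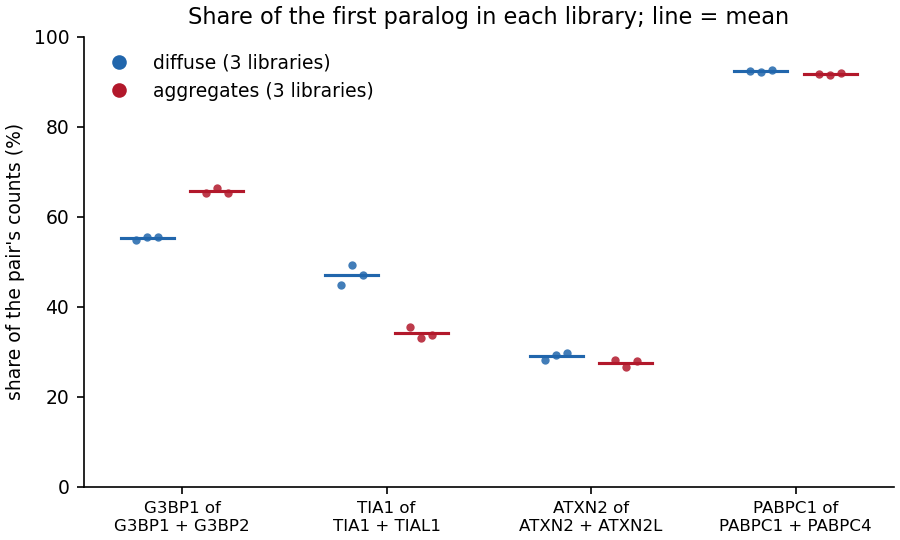
Share of the first gene of each paralog pair in the pair's summed counts, in percent, for each diffuse (blue) and aggregate (red) library, with a line at the group mean. The G3BP1 share is 55.2% in diffuse cells and 65.6% in aggregates, the TIA1 share is 47.03% and 34.1%, and the ATXN2 and PABPC1 shares differ by 1.51 and 0.692 points.

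Splicing was measured from LeafCutter counts, in which introns that share a splice site form a cluster. Of the 295 introns on the strand of the 10 genes, 204 are annotated in GENCODE 29 and 91 are not. They formed 68 clusters, of which 67 could be tested, and intron use changed in 4 by edgeR's test of each intron against its cluster (Simes method, adjusted over all clusters). That is 5.97% of them, beside 5.02% of all tested clusters, a share near the background. The changed clusters lay in PABPC1, UBAP2L, TIA1 and G3BP1. Of the 4, only the PABPC1 cluster passed when diffuse library 3 was left out, and 2 passed without aggregate library 3. An F test over all introns of a cluster called 7 of the 67, with 7.58% of all clusters called. These were the same 4 clusters, a second PABPC1 cluster (adjusted p = 0.0226) and clusters of G3BP2 (0.0118) and CAPRIN1 (0.0361).

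In G3BP1 the cluster changed through a rare skip of a 91-base coding exon, shown because 91 is not a multiple of 3 and its skip shifts the frame (chr5:151794159-151794249, plus strand, GRCh38, GENCODE 29).
G3BP1 exon of 91 bases: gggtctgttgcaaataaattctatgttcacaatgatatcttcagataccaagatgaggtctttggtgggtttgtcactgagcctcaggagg
The skipping intron, chr5:151791063-151795478, was singled out after its values were seen and had 0, 0 and 0 reads in aggregates and 4, 4 and 10 in diffuse cells. Those are 0 of 1114, 1230 and 1173 reads from that 5′ splice site. Limits from 3 counts in each were 0.269%, 0.244% and 0.256%, against 0.386%, 0.381% and 0.853% in diffuse cells. The diffuse intervals were 0.105 to 0.986, 0.104 to 0.972 and 0.41 to 1.56% (exact Clopper-Pearson, 95%). Over the diffuse group the share was 0.552%, which is 6.47-fold the limit of 0.0853% from 3 counts of 3517 reads in aggregates. That ratio leaves out the counting error of the diffuse reads. Exact upper bounds in aggregate libraries 1, 2 and 3, at 0.331%, 0.299% and 0.314%, overlapped the intervals of diffuse libraries 1 and 2. The introns on either side of the exon, chr5:151791063-151794158 and chr5:151794250-151795478, changed by -0.31 and 0.573 points of cluster reads, within the spread of the libraries. The cluster's adjusted p was 0.0133 in edgeR, 1 without diffuse library 3, and 0.0595, 0.0667 and 0.0578 without aggregate library 1, 2 or 3.

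In UBAP2L the choice between transcript ends shifted toward the nearer end. Its coding sequences after the shared 5′ splice site are shown because the shift exchanges the last codons. They are from GENCODE 29 transcripts on GRCh38, plus strand, 5′ to 3′. The first, chr1:154263103-154263152, is the coding start of a 403-base last exon, with its stop codon in capitals, and the second, chr1:154266501-154266568, is the first exon of the distal form.
UBAP2L proximal end: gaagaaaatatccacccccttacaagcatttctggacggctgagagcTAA
UBAP2L distal exon: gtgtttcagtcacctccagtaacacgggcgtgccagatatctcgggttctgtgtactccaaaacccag
The intron to the proximal exon, chr1:154261698-154263102, took 73.3, 71.9 and 72.4% of the cluster's reads in aggregates and 61.4, 61.6 and 61.6% in diffuse cells. The intron to the distal exon, chr1:154261698-154266500, took 26.6, 28.1 and 26.7% in aggregates and 38.5, 38.3 and 38.4% in diffuse cells. Replicates differed by under 2 points and the groups by 11.03 and 11.28 points, at 609 to 862 reads per library. The cluster's adjusted p was 0.00814 in edgeR, and 0.0529 without diffuse library 3. By intron, the edgeR adjusted p was 0.00737 for the fall of the distal intron and 0.257 for the gain of the proximal one.

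In TIA1 an intron that skips a 33-base exon took fewer reads of its cluster in aggregates. The exon is shown in capitals between 50 bases of intron on each side, since it is the unit that was skipped or kept (chr2:70229009-70229141, minus strand, GRCh38, from a GENCODE 29 transcript that retains the intron).
TIA1 exon of 33 bases: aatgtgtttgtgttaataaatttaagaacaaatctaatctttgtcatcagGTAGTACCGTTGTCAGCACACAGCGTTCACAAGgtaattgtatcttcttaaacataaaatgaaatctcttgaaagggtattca
The 33 bases are a multiple of 3, and 4 protein-coding and 2 nonsense-mediated decay transcripts include them. The 50 bases before the exon hold 2 copies of GTGT, the DNA form of the UG repeats that TDP-43 is known to bind, and none of the reverse complement ACAC. Among 23284 such windows before annotated exons that other retained-intron transcripts cover, 17.9% hold GTGT at least once, 2.07% hold 2 or more and 11.2% hold ACAC. This match describes the letters of the window, not a bound site. The window belongs to an exon already seen to change, and no other named intron was scanned. The 50 bases after the exon hold no GTGT.

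The intron that skips the 33-base TIA1 exon, chr2:70227823-70229263, took 10.7, 12.4 and 5.71% of the cluster's reads in aggregates and 16.3, 16.4 and 19.3% in diffuse cells. Aggregate library 3 stood lowest, and the groups did not overlap. The intron before the exon, chr2:70229092-70229263, took 42.5 ± 2.05% in aggregates and 36.5 ± 1.5% in diffuse cells (SD, n = 3), the largest gain. That gain did not pass by itself (edgeR intron adjusted p = 0.733), while the fall of the skipping intron did (0.0168). Among reads that leave the 5′ splice site upstream, the skipping intron had 18.2 ± 5.79% in aggregates and 32.2 ± 2.89% in diffuse cells. On the downstream side the groups overlapped: the main intron leaving the exon, chr2:70227823-70229058, took 30.0 ± 3.99% of cluster reads in aggregates and 33.6 ± 2.52% in diffuse cells. All 3 introns leaving the exon together took 39.2 ± 4.42% and 40.2 ± 1.44%, so the larger share was seen on the upstream side alone. The cluster's adjusted p was 0.032 in edgeR, at 350 to 539 reads per library. It passed in 1 of the 6 fits that left out a library, with 0.316 without aggregate library 3, 0.289 without diffuse library 3, 0.0569 without aggregate library 1, 0.0722 without diffuse library 1 and 0.0947 without diffuse library 2.

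A second TIA1 exon, singled out after its values were seen, had a larger share of reads in aggregates, but its change did not pass by itself. It is 119 bases long, not a multiple of 3, and occurs only in a nonsense-mediated decay transcript (chr2:70228344-70228462, minus strand, GRCh38, GENCODE 29). It is shown because its inclusion shifts the reading frame.
TIA1 exon of 119 bases: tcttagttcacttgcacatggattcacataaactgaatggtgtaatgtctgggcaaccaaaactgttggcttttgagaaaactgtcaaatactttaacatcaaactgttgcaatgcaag
The intron from the 33-base exon to it, chr2:70228463-70229058, had 36, 30 and 30 reads in aggregates and 24, 24 and 23 in diffuse cells, although TIA1 as a whole was lower in aggregates. Of reads leaving the 33-base exon, 21.9 ± 2.04% went to it in aggregates and 11.4 ± 0.844% in diffuse cells. The intron's own adjusted p was 0.146 in edgeR.

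**Figure D4:**
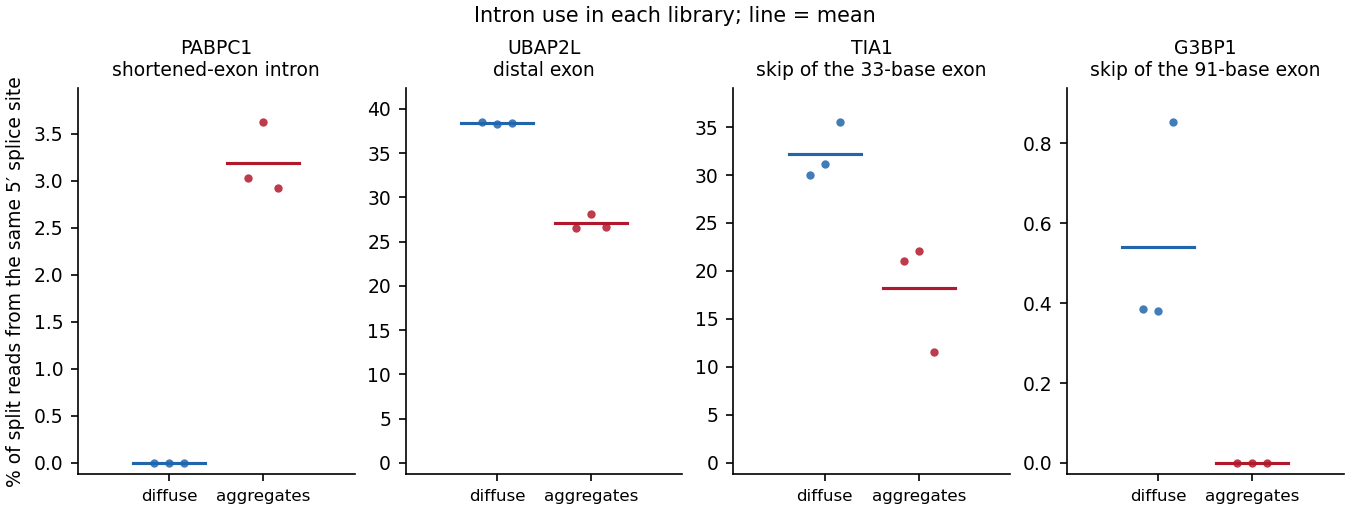
Reads of 4 introns as a percent of all split reads from the same 5′ splice site, in each diffuse (blue) and aggregate (red) library, with a line at the group mean and a separate axis for each panel. The PABPC1 intron is at 0 in all diffuse libraries, the G3BP1 skip is at 0 in all aggregate libraries, and the UBAP2L and TIA1 introns are lower in aggregates.

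The PABPC1 cluster held an intron seen in aggregates alone. The intron, chr8:100709552-100712651, is annotated in a single PABPC1 transcript. It leaves out a 96-base exon and joins a splice site inside the next exon, keeping 93 of its 273 bases. The 276 bases left out in all are a multiple of 3. It had 308, 404 and 327 split reads in aggregates and none in any diffuse library. As a share of all reads leaving the same 5′ splice site, this was 3.03% (95% exact Clopper-Pearson interval 2.7 to 3.38), 3.62% (3.28 to 3.98) and 2.92% (2.62 to 3.25) in aggregates. In the diffuse libraries 0 of 5927, 5776 and 6247 reads were found, which gives limits of 0.0506%, 0.0519% and 0.048% from 3 counts in each. The exact 95% upper bounds were 0.0622%, 0.0638% and 0.059%. Over the aggregate group the share was 3.19%, which is 191-fold the limit of 0.0167% from 3 counts of 17950 reads in diffuse cells. That ratio leaves out the counting error of the aggregate reads. The cluster's adjusted p was 1.73e-44 in edgeR. The intervals and limits cover counting error only.

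Some other introns of the same PABPC1 cluster took a smaller share of its reads in aggregates. The annotated intron with the largest loss of cluster share, chr8:100715602-100717772, took 27.1 ± 0.534% in aggregates and 27.9 ± 0.425% in diffuse cells, with an intron adjusted p of 1 in edgeR. Of reads from its own 5′ splice site it took 99.95 ± 0.017% in aggregates and 99.75 ± 0.0523% in diffuse cells. Its use at that site was thus not lower in aggregates. Among introns singled out after their values were seen, 3 unannotated ones that each skip a whole annotated exon were rarer in aggregates although PABPC1 had more reads there. The intron chr8:100712790-100715461, which skips a 95-base exon, had 5, 7 and 9 reads in aggregates and 26, 34 and 30 in diffuse cells (edgeR intron adjusted p = 1.52e-08). The intron chr8:100713182-100717772, which skips a 140-base exon, had 9, 6 and 5 against 14, 20 and 23 reads (adjusted p = 0.000232). The intron chr8:100712458-100713086, which skips a 138-base exon, had 4, 3 and 0 against 10, 8 and 18 reads (adjusted p = 0.000572). Together, unannotated introns took 0.024 to 0.0368% of PABPC1 split reads in aggregates and 0.102 to 0.115% in diffuse cells, with no overlap. This was not particular to PABPC1. The share was also lower in aggregates without overlap for CAPRIN1, at 0.136 to 0.275% against 0.329 to 0.384%, and for ATXN2L, at 1.33 to 1.52% against 1.67 to 1.87%. For G3BP2 it was higher, at 0.648 to 0.726% against 0.376 to 0.57%. In the remaining genes described here the groups overlapped, and the share over all genes was not measured.

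In the other 6 genes no cluster passed edgeR's Simes test, and the intron with the largest change is given for each. The ATXN2 intron chr12:111457360-111470107 took 22.2, 21.8 and 20.9% of cluster reads in aggregates and 38.6, 32.7 and 28.0% in diffuse cells (cluster adjusted p = 0.427). It skips a 54-base exon and also spans a 167-base exon annotated in 1 transcript that is not protein-coding. Its groups did not overlap, but the diffuse libraries spread over more than 10 points. The ATXN2L intron chr16:28836177-28836727 took 4.74 ± 1.2% and 10.3 ± 2.04% (adjusted p = 0.213). The CAPRIN1 intron chr11:34052637-34071725 took 79.5 ± 1.63% in aggregates and 73.5 ± 3.4% in diffuse cells (Simes adjusted p = 0.109, F test 0.0361). It took 100% of reads from its own 5′ splice site in both groups. The difference thus lay against the intron before it, chr11:34051872-34052420, at 20.4 ± 1.78% in aggregates and 26.2 ± 3.16% in diffuse cells. The intron skipping the exon between them took 0.10 ± 0.177% in aggregates and 0.30 ± 0.265% in diffuse cells. The G3BP2 intron chr4:75662050-75673018 took 5.59 ± 1.22% and 3.62 ± 0.611% (Simes adjusted p = 0.118, F test 0.0118). The PABPC4 intron chr1:39570003-39571096 took 10.0 ± 0.344% and 13.9 ± 4.54% (adjusted p = 0.182), and the TIAL1 intron chr10:119588249-119596433 took 52.0 ± 3.5% and 55.3 ± 3.38% (adjusted p = 1). The PABPC4 and TIAL1 groups overlapped.

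Other genes of the pathway were read from lists and are given beside the 10. Each list count below is to be read beside the shares over all genes, 37.8% rises and 37.6% falls. Of 30 other stress granule proteins, 13 rose, 14 fell and 3 did not pass, with a median log2 fold change of -0.04, which was 0.016 after the GC and length correction. YBX3, a cold shock domain RNA-binding protein, was at 524, 523 and 530 CPM in aggregates and 315, 307 and 313 in diffuse cells, a log2 fold change of 0.75. LARP1, which binds the 5′ end of messenger RNAs of the translation machinery, rose by 0.60. IGF2BP1, an mRNA-binding protein, was at 3.17, 2.698 and 3.16 CPM in aggregates and 7.24, 7.12 and 7.41 in diffuse cells, a log2 fold change of -1.27. In edgeR the adjusted p was 2.57e-35 for YBX3 and 7.33e-23 for IGF2BP1.

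Among 7 other paralogs or looser relatives of the 10 genes, 2 rose, 4 fell and 1 did not pass. Their median was -0.12, and 0.15 after the GC and length correction. PABPC4L, a further poly(A)-binding protein gene, was at 13.5, 11.5 and 13.9 CPM in aggregates and 38.5, 40.4 and 40.5 in diffuse cells, a log2 fold change of -1.62, opposite to PABPC1 and PABPC4. CAPRIN2, the paralog of CAPRIN1, was at -0.56. PABPC1L and PABPN1, the nuclear poly(A)-binding protein, rose by 0.43 and 0.24. Of 12 partners of poly(A)-binding protein, 7 rose and 5 fell, with a median of 0.24. EIF4B, an initiation factor that stimulates the eIF4A helicase, rose by 0.51, and PAN2, a deadenylase subunit, by 0.50. MKRN1, a ubiquitin ligase that binds PABPC1, was at -1.12 and TOB1, which recruits deadenylases, at -0.62.

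Of 14 genes of eIF2 phosphorylation and exchange, the step whose block starts granule assembly, 10 rose, 2 fell and 2 did not pass, with a median of 0.28. With the GC and length correction 12 rose and 1 fell, and the median stayed at 0.28. EIF2S3, the gamma subunit of eIF2, rose by 0.92 and EIF2B1, a subunit of its exchange factor, by 0.67. The fallen genes were the kinase genes EIF2AK3 at -0.25 and EIF2AK2 at -0.11, and EIF2AK2 was at 0.13 after the GC and length correction. Of 15 genes of processing bodies, the neighbouring granules of mRNA decay, 2 rose, 11 fell and 2 did not pass, with a median of -0.26. After the GC and length correction 3 rose and 9 fell, with a median of -0.15. In that corrected fit 6999 of all 17839 genes rose and 6462 fell. TNRC6A, the scaffold of microRNA silencing, was at 63.0, 64.3 and 62.8 CPM in aggregates and 196, 204 and 211 in diffuse cells, a log2 fold change of -1.68. The decapping enzyme gene DCP2 was at -1.10, while its cofactors DCP1B and DCP1A rose by 0.51 and 0.11.

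Of 16 genes of stress granule clearance, 7 rose, 7 fell and 2 did not pass, with a median of 0.06. SQSTM1, the autophagy receptor p62, was at 648, 659 and 638 CPM in aggregates and 109, 106 and 108 in diffuse cells, a log2 fold change of 2.59 (SE 0.038, edgeR adjusted p = 2.78e-75). HSPA8, a chaperone, rose by 0.86. USP13, a deubiquitinase, was at -1.93 and DNAJB6, a co-chaperone, at -0.69. These counts stand beside 37.8% rises and 37.6% falls among all genes.

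**Figure D5:**
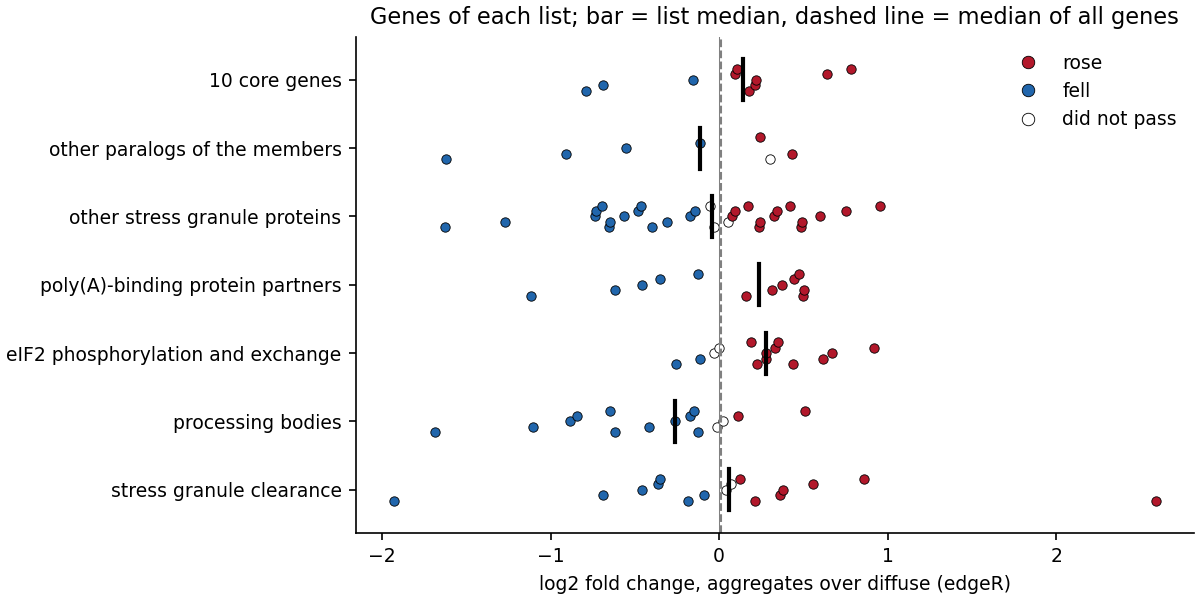
Log2 fold change, aggregates over diffuse, of every tested gene of each list, with rises in red, falls in blue, genes that did not pass in white, a black bar at the list median and a dashed line at the median of all genes. The 10 core genes lie between -0.79 and 0.78, and 11 of 15 processing body genes are blue.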

How the data were processed

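The series design calls the 3 transfections of a group independent biological replicates. All 6 libraries carry 1 batch label. The submitters' processing notes name STAR 2.7.11a, fastp 0.23.2 and the build hg38. The tool, annotation and strand setting behind the gene counts, and the release of LeafCutter, were not given in the sources used here. Both deposited tables hold whole-number counts made by the authors, not normalized: counts per gene (10 names on more than 1 row, kept apart) and counts of split reads per intron.

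The gene test used R 4.3.3 and edgeR 4.0.16 (filterByExpr, TMM, robust quasi-likelihood fit; SE from the log2 fold change and its F statistic). CPM are TMM-scaled. The common biological coefficient of variation was 3.08%, and each adjusted p rests on 3 libraries a group. Introns with at least 10 counts in all, in clusters with at least 2 of them and 10 counts in every library, were tested with diffSpliceDGE. Intron positions are first and last intron base, counted from 1. Exon lengths, GC content and sequences came from GENCODE 29 (GRCh38), and the correction for GC and length covered 96.86% of genes. Intervals came from scipy. The code was tested on simulated data.

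Alternatives were DESeq2 1.42.0, RLE scaling, other filters, a minimum fold of 1.2, the GC and length correction, a replicate block, an F test per cluster, a cluster minimum of 20, and leaving out each library. From each list the text names up to 2 rises and 2 falls of largest size with at least 5 CPM and no overlap; 1 gene that meets this rule is not reported here. The 10 genes and the lists were chosen with earlier results of these data known.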

Additional observations from a re-analysis of the deposited data

How the results depend on the processing

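Under 14 alternatives, G3BP2, TIA1, PABPC1 and PABPC4 kept their direction and passed in every one. G3BP1 reversed to 0.097 with the GC and length correction, and again to 0.097 with the replicate block and that correction together, and EIF2AK2 reversed to 0.13 in both. Against a fold of 1.2, G3BP1 at -0.16, CAPRIN1 at 0.21, UBAP2L at 0.18, TIAL1 at 0.092, ATXN2 at 0.11 and ATXN2L at 0.22 no longer passed. With a library left out, TIAL1 ranged from 0.076 to 0.10 and ATXN2 from 0.072 to 0.13. The F test called 2721 clusters in all and 7 in the 10 genes, against 1802 and 4. With a library left out, 1171 to 1318 clusters passed in all and 1 to 4 in the 10 genes. The adjusted p then ranged from 0.023 to 1 for the G3BP1 cluster, 0.0212 to 0.0529 for UBAP2L, 0.017 to 0.316 for TIA1 and 5.59e-35 to 1.75e-29 for PABPC1. Those fits hold fewer libraries, and the cause was not tested.

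Per kilobase of the longest principal transcript, an alternative chosen after seeing the data, diffuse levels were 40.3 for G3BP1, 68.7 for G3BP2, 78.5 for CAPRIN1, 56.1 for UBAP2L, 13.8 for TIA1, 51.5 for TIAL1, 13.1 for ATXN2, 37.6 for ATXN2L, 418 for PABPC1 and 39.2 for PABPC4.

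Same-numbered libraries of the groups correlated at 0.0362, 0.0831 and 0.0602 over genes, and each correlated best with its own number, a hint from the data only. With the replicate block 13530 genes passed, against 13455, and 1494 clusters, against 1802, of which 4 lay in the 10 genes. The block changed no call among the 10 genes. For the 31 listed genes that meet the naming rule, 427 of 434 values under the alternatives kept direction and call, and 5 no longer passed. Depth limited the rare introns: 0 of 1114 to 1230 reads from a splice site gives limits of 0.244 to 0.269% from 3 counts. The exact 95% upper bounds were higher, at 0.299 to 0.331%.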

Other observations

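Of the 8 bone and mesenchymal markers, 7 could be tested: 2 rose, 4 fell and 1 did not pass, with a median log2 fold change of -0.65. COL1A1, a fibrillar collagen chain, was at 1584, 1397 and 1567 CPM in aggregates and 3296, 3146 and 3191 CPM in diffuse cells. COL1A2, its partner chain, was at 8.11, 6.67 and 7.29 CPM against 25.7, 24.6 and 23.4 CPM. ALPL, the bone alkaline phosphatase, rose by 1.25 and RUNX2, a transcription factor of osteoblasts, by 0.56 on the log2 scale.

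Of the 14 markers of other cell types, 7 could be tested: 2 rose, 1 fell and 4 did not pass. MAP2, a microtubule protein of neurons, was at 99.2, 99.9 and 105 CPM in aggregates and 54.2, 53.9 and 54.6 CPM in diffuse cells. SYP, a synaptic vesicle protein, rose by 0.55 on the log2 scale, and SNAP25, a synaptic fusion protein, was at -0.71.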
